A study of Mus musculus with 18 samples.

Results

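The 9 genes described here are the identity and hormone genes of the Sertoli cell, the somatic cell of the seminiferous tubule that surrounds and nourishes the germ cells. They are *Sox9*, *Wt1*, *Gata4*, *Dmrt1*, *Amh*, *Inha*, *Inhbb*, *Fshr* and *Rhox5*. They were found by NCBI gene number, and each of the 9 matched 1 row of a table of 22657 rows. Values are FPKM, which is scaled by transcript length and by the reads of a sample, so levels of different genes can be set side by side. All samples were whole testes of ICR mice, an outbred stock, cultured for 48 h in DMEM/F12 medium with 10% FBS. A0, A10 and A50 were testes of mice without busulfan, cultured with 0, 10 or 50 μg/mL of alginate oligosaccharides (AOS), which are short sugar chains cut from a seaweed polymer. The mice of B0, BA10 and BA50 had received a single busulfan injection (40 μg per g body weight) at 3 weeks of age, and their testes were kept in 0, 10 or 50 μg/mL AOS in turn. Busulfan alkylates DNA and is toxic to proliferating germ cells. The testes were taken 2 weeks after the injection, and those without busulfan came from mice of matching age. Each of the 6 groups has 3 samples, 18 in all. The paper describes several testes per treatment and repeated cultures, but the labels do not say which animals a sample holds, so the p-values below measure the spread between these samples, which may be partly technical.

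Sertoli cells take their identity from transcription factors. WT1 and GATA4 act in the early gonad, SOX9 commits supporting cells to the male fate, and DMRT1 keeps them from turning toward the ovarian fate after birth. DMRT1 is also present in spermatogonia, where it governs the step from mitosis to meiosis, so its transcript in whole testis has more than one source. The hormone genes link the cell to the pituitary. FSH acts on FSHR, which within the testis is a receptor of Sertoli cells. The cell answers with inhibin B, made of the α subunit encoded by *Inha* and the βB subunit encoded by *Inhbb*, which lowers FSH release. AMH is made in quantity by immature Sertoli cells and declines at puberty, and RHOX5 is an androgen-driven homeobox protein of the mature cell. GATA4 and inhibin α are also made in Leydig cells, the steroid-producing cells between the tubules.

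Of the 9 genes, 4 had a promoter sequence for GRCm38.p6 from RefSeq (250 bases before to 50 after an annotated start), and they are all hormone or hormone-response genes. They are shown because these members ran at very different levels in the same samples. *Inha* lies at chr1:75507359-75507658 on the plus strand, within the annotated span of the gene. *Inhbb* lies at chr1:119422199-119422498 on the minus strand, *Fshr* at chr17:89200626-89200925 on the minus strand and *Rhox5* at chrX:37754358-37754657 on the plus strand. Each reads 5′ to 3′ on the gene's own strand, and capitals mark the letters searched for on both strands: GATA factor words (AGATAA or AGATAG, and also TGATAA or TGATAG), the NR5A1 word AAGGTCA, the SOX9 word AACAAT, the CREB word TGACGTCA, the USF E box CACGTG, the androgen receptor word AGAACA and the TATA box TATAAA.
Inha: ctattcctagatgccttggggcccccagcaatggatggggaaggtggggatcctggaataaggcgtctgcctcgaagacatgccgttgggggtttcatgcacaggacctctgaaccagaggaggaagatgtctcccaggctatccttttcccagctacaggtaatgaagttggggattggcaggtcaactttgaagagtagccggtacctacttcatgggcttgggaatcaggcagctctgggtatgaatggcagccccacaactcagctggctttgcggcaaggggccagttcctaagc
Inhbb: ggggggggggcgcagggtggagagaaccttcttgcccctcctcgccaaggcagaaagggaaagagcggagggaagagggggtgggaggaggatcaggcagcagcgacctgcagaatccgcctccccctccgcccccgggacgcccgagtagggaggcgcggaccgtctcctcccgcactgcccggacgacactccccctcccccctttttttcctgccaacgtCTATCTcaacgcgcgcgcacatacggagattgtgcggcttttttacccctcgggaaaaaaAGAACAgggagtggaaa
Fshr: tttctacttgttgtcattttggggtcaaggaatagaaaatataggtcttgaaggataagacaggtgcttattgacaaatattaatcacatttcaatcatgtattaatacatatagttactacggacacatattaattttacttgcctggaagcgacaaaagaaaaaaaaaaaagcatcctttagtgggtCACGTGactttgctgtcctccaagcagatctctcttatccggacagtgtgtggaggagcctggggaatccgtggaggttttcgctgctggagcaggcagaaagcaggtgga
Rhox5: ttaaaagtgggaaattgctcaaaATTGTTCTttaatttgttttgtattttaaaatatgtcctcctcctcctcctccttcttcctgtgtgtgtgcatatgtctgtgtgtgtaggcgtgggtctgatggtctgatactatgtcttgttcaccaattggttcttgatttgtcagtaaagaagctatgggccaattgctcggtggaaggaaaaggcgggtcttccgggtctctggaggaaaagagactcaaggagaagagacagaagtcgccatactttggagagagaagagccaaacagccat
The *Fshr* window held the E box starting 61 bases before the annotated start. This word occurred in 7.15% of 32851 windows of the same length. The *Inhbb* window held a GATA word on the opposite strand, starting 27 bases before the start (GATA words were in 29.8% of windows), and the androgen receptor word after the start (19% of windows). The *Rhox5* window held the SOX9 word (10.7% of windows) and the androgen receptor word, both on the opposite strand and overlapping each other, in its upstream end. The *Inha* window held none of the words searched. The NR5A1, CREB and TATA words, found in 4.72%, 1.79% and 13.6% of windows, were in none of the 4. *Sox9*, *Wt1*, *Gata4*, *Dmrt1* and *Amh* are named only.

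The levels of the 9 genes spread widely. *Inha* was highest, with a mean of 140 FPKM over the 18 samples, above 97.7% of the rows of the table. *Wt1* followed with a mean of 41.6 FPKM, then *Gata4* with 25.9, *Inhbb* with 19.1, *Sox9* with 15.6, *Rhox5* with 10.1, *Dmrt1* with 4.96, *Fshr* with 1.84 and *Amh* with 0.434. *Inha* exceeded *Wt1*, *Gata4* exceeded *Inhbb* and *Fshr* exceeded *Amh* in 18 of 18 samples each. The order of *Inhbb* over *Sox9* held in 15 samples and of *Sox9* over *Rhox5* in 16, so these neighbours were not separated beyond their spread. *Rhox5* exceeded *Dmrt1* in 14 samples, among them every sample with busulfan, where *Rhox5* was at least 7.59 FPKM and *Dmrt1* at most 1.03. Without busulfan their order varied. *Dmrt1* exceeded *Fshr* in 9 of 18 samples, which were those without busulfan. *Wt1* kept a narrow proportion to *Sox9*, at 1.9 to 3.44 times its FPKM across all samples.

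**Figure D1:**
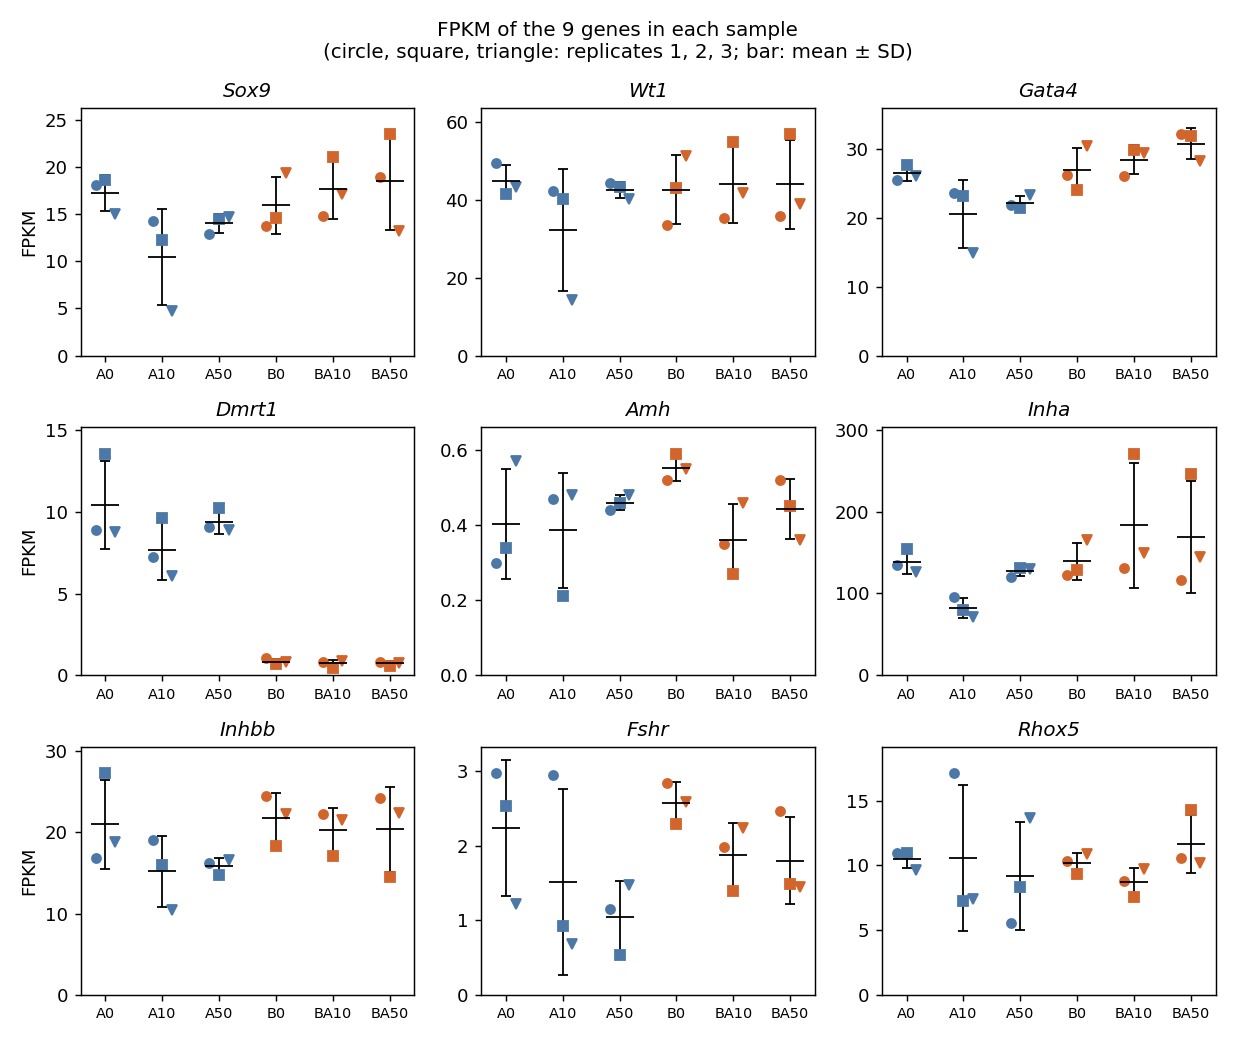
FPKM (vertical axis, from 0) of each of the 9 genes in the 6 groups, with points for the 3 samples of a group (circle, square and triangle for replicates 1, 2 and 3) and black bars for mean ± SD; blue groups had no busulfan and orange groups had busulfan. *Dmrt1* lies at 6.06 FPKM or more in every blue sample and at 1.03 or less in every orange sample, while the ranges of the other 8 genes overlap between the colours.

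Libraries that stood apart need to be known before the comparisons. Pearson's r with the other samples of the group, across all genes on the log2(FPKM + 1) scale, ran from 0.962 to 0.993. A10 replicate 3 had the lowest. It was below both other A10 samples in 7 of the 9 genes, it held the lowest value of the 18 samples in 15 of 24 other Sertoli cell genes, and their mean on the log2(FPKM + 1) scale was 4.61 against 5.06 to 5.7 in the other 17 samples. Its summed spermatocyte and peritubular myoid markers were the highest of the 18 (2199 and 511 FPKM), but among the single genes it was highest only in *Ldhc* of 10 spermatocyte genes and in *Tagln* and *Cnn1* of 6 myoid genes. BA10 replicate 2 and BA50 replicate 2 were mid-range in that mean (5.4 and 5.37), although their sums of other Sertoli cell genes, in which *Clu* weighs most (4513 and 4425 FPKM), were the highest of the 18 (8370 and 8699 FPKM). They had the highest sums of spermatid markers (6966 and 11295 FPKM) and macrophage markers lower than in the other samples of their groups (211 and 135 FPKM). All 3 B0 samples were high in genes of other tissues. Their summed fat cell markers were 207 to 887 FPKM against 42.5 to 138 in the other groups, and *Krt7*, a keratin of simple epithelium, was 6.88 to 25.3 FPKM against 0.1 to 1.18. *Car3*, a carbonic anhydrase abundant in fat and muscle, was 9.25 to 83.2 FPKM in B0 and at most 1.06 elsewhere. The part of A10 replicate 3, BA10 replicate 2 and BA50 replicate 2 in the results of the members was measured only by leaving them out, singly and together. For genes of the other lists no such values are given here. The B0 samples were left out only 1 at a time, so the part of what all 3 share was not measured.

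*Dmrt1* was the member that busulfan changed most. In A0 its 3 samples had 8.91, 13.6 and 8.79 FPKM, in A10 they had 7.25, 9.61 and 6.06, and in A50 they had 9.07, 10.2 and 8.9. In B0 the values were 1.03, 0.67 and 0.78 FPKM, in BA10 0.82, 0.47 and 0.88, and in BA50 0.84, 0.57 and 0.75. Each of the 9 samples with busulfan was below each of the 9 without it, and the mean of 9.15 ± 2.07 FPKM (SD, n = 9) was 12.1 times the mean of 0.757 ± 0.168 (SD, n = 9). On the log2(FPKM + 1) scale, which understates changes of low genes, *Dmrt1* fell by 2.62 (SE 0.173) from A0 to B0, by 2.31 from A10 to BA10 and by 2.6 from A50 to BA50, and by 2.51 (SE 0.0996) averaged over the 3 AOS concentrations (adjusted p = 5.9e-11, limma with Benjamini-Hochberg adjustment over 15790 genes). In an exact two-sided permutation test of the busulfan label within AOS concentration its p was 0.00025, the smallest that the 8000 arrangements can give. In bulk tissue, fewer cells of a type and less RNA per cell cannot be told apart.

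A gene was called at an adjusted p of at most 0.001 with a log2 change of at least 1, and counted a second time at an adjusted p under 0.05 with no fold limit. The stricter limits are those in the supplementary methods of the paper. There they were applied to results of DEGseq, a different test, so counts here and in the paper are not like for like. Of the 9 members 8 passed the filter of 1 FPKM in 3 samples, and *Amh* did not. *Dmrt1* was the 1 called member in each busulfan comparison. The share of all genes called was 2.54% for B0 vs A0, 3.01% for BA10 vs A10, 3.39% for BA50 vs A50 and 3.61% for the averaged effect. At an adjusted p under 0.05, 1 member passed for B0 vs A0 (13.8% of all genes did), 3 for BA10 vs A10 (18.9%), 2 for BA50 vs A50 (19.9%) and 3 for the averaged effect (38.1%). The 3 in the averaged effect were *Dmrt1*, *Gata4* and *Inha*. A count of 3 of 8 is thus close to the share of all genes. With only the 2 groups compared in the fit, *Dmrt1* was not called for B0 vs A0 or BA10 vs A10, because its adjusted p exceeded 0.001 (0.00186 for BA10 vs A10).

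**Figure D2:**
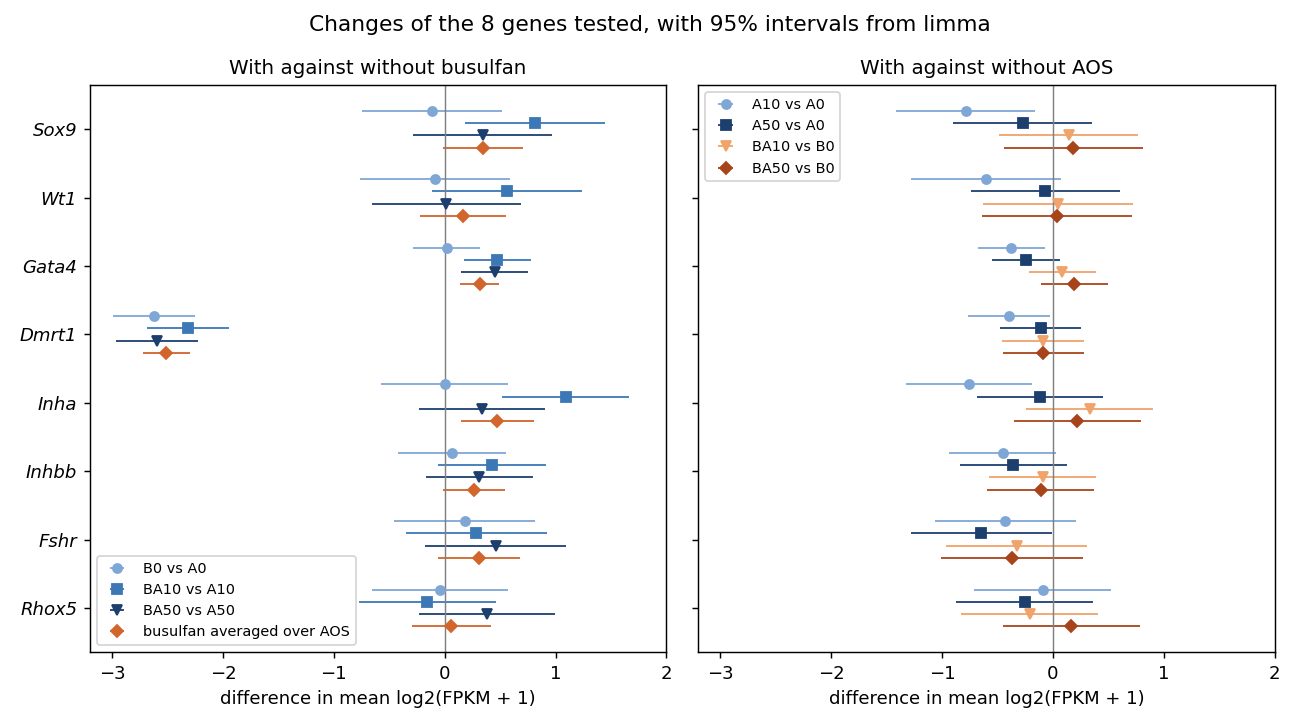
Differences in mean log2(FPKM + 1) for the 8 genes tested (rows), with and without busulfan on the left and with and without AOS on the right; points are estimates and lines are 95% intervals from limma. All 4 *Dmrt1* busulfan estimates lie between -2.62 and -2.31, and the averaged estimates of the other 7 genes lie between 0.06 and 0.48.

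The genes whose pattern over the 18 samples was most like that of *Dmrt1* were *Tex19.1*, *Trim71*, *Stra8*, *Lig1* and *Mageb4*, a ranking added after its values were seen. The samples fall into 2 sets, with and without busulfan, so the correlation is given within each set. Among the 9 samples without busulfan, Pearson's r with *Dmrt1* was 0.936 for *Tex19.1* (Spearman's rho 0.8), 0.935 for *Trim71* (rho 0.787) and 0.875 for *Stra8* (rho 0.85). For *Lig1* it was 0.863 (rho 0.733) and for *Mageb4* 0.882 (rho 0.7). Among the 9 with busulfan it was 0.48 for *Tex19.1*, -0.277 for *Trim71*, -0.252 for *Stra8*, 0.851 for *Lig1* (rho 0.883) and -0.581 for *Mageb4*. All but *Lig1* were near the floor there, *Trim71* at 0.01 to 0.04 FPKM and *Mageb4* at 0.1 to 0.23. With values of 2 decimals, r for these 4 genes with busulfan cannot be read. *Stra8*, the gene induced by retinoic acid as germ cells enter meiosis, had 14.2 to 35.4 FPKM (median 23.9) without busulfan and 0 to 0.12 FPKM with it. *Tex19.1*, a germ cell gene that restrains transposable elements, had 4.43 to 8.87 FPKM without busulfan and 0 to 0.15 with it. *Lig1*, a DNA ligase of replication, had 9.89 to 13.3 FPKM without busulfan and 5.19 to 6.23 with it.

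Some of the spermatogonial genes and all of the spermatocyte genes tested also fell with busulfan. Of 9 spermatogonial genes tested, 5 fell and 1 rose at an adjusted p under 0.05 (66.7%, against 38.1% of all genes). Their median log2 change was -0.58, against a median of 0.01 over all genes tested. *Etv5* was the gene that rose, by 0.28 (adjusted p = 0.037). *Gfra1* (-0.27), *Zbtb16* (-0.32) and *Uchl1* (-0.03) did not pass. *Dazl*, an RNA-binding protein of germ cells, fell by 3.48 on the log2(FPKM + 1) scale (from 40.9 to 78.4 FPKM without busulfan to 2.72 to 11.2 FPKM with it). *Sohlh1*, a factor of differentiating spermatogonia, fell by 1.96 (adjusted p = 3.6e-10), and *Sall4*, a factor of undifferentiated and differentiating spermatogonia, fell by 1.3 (adjusted p = 2.9e-09). Of 10 spermatocyte genes tested, 10 fell, with a median of -2.59. *Tex101*, a surface protein of germ cells, fell by 5.56, *Hormad1*, which marks unsynapsed chromosome axes, by 3.74, *Piwil1*, a piRNA-binding protein, by 3.44 and *Sycp3*, of the synaptonemal complex, by 3.28. Of 10 spermatid genes tested, 1 rose and 0 fell (10%), with a median of 0.39. That gene was *Tssk6*, a kinase of spermatids, which rose by 0.54 (adjusted p = 0.0412). The summed spermatogonial markers were 127 to 238 FPKM without busulfan and 71.9 to 130 with it.

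**Figure D3:**
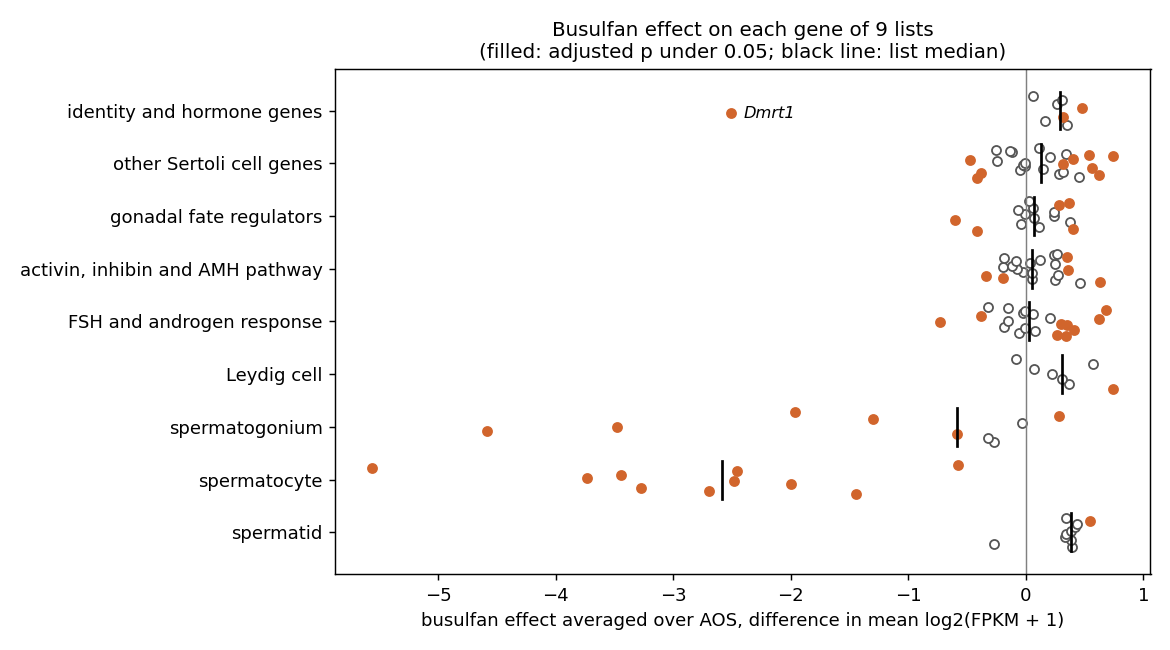
Busulfan effect averaged over AOS (horizontal axis, difference in mean log2(FPKM + 1)) for every tested gene of 9 lists (rows); filled points have an adjusted p under 0.05 and the black line is the list's median. *Dmrt1*, at -2.51, lies apart from the other identity and hormone genes, within the span of the spermatogonial and spermatocyte genes.

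No other transcription factor of the list was lower with busulfan at an adjusted p under 0.05. *Sox9* had 18, 18.6 and 15 FPKM in A0, 14.3, 12.3 and 4.71 in A10, and 12.8, 14.5 and 14.7 in A50. It had 13.8, 14.6 and 19.4 FPKM in B0, 14.8, 21.1 and 17.1 in BA10, and 18.9, 23.5 and 13.2 in BA50. The sets with and without busulfan overlapped broadly, and the averaged log2 change was 0.35 (95% interval -0.01 to 0.71, adjusted p = 0.12). Without A10 replicate 1 it was 0.44 and passed (adjusted p = 0.0432), and without A10 replicate 3, BA10 replicate 2 and BA50 replicate 2 it was 0.0975 (adjusted p = 0.438). *Wt1* had 49.5, 41.5 and 43.1 FPKM in A0, 42.2, 40 and 14.2 in A10, and 44.2, 43.2 and 40.3 in A50. It had 33.5, 43 and 51.1 FPKM in B0, 35.3, 54.8 and 41.8 in BA10, and 35.9, 56.8 and 38.9 in BA50. Its averaged log2 change was 0.16 (95% interval -0.23 to 0.55, adjusted p = 0.50), and with A10 replicate 3, BA10 replicate 2 and BA50 replicate 2 left out it was -0.12.

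*Gata4*, a zinc finger factor of the somatic cells of the gonad, was higher with busulfan. It had 25.5, 27.7 and 26.1 FPKM in A0, 23.7, 23.2 and 14.9 in A10, and 21.9, 21.4 and 23.3 in A50. It had 26.1, 24.1 and 30.5 FPKM in B0, 26.1, 29.9 and 29.4 in BA10, and 32.1, 31.9 and 28.2 in BA50. A0 and B0 overlapped, whereas each BA10 sample was above each A10 sample and each BA50 sample above each A50 sample. The log2 change was 0.02 for B0 vs A0, 0.47 (SE 0.142, adjusted p = 0.0292) for BA10 vs A10, 0.45 (SE 0.142, adjusted p = 0.0354) for BA50 vs A50 and 0.31 (SE 0.0817, adjusted p = 0.0071) averaged. The exact permutation p of the averaged effect, unadjusted, was 0.0035, and the averaged effect passed an adjusted p of 0.05 in all 27 alternatives. Without A10 replicate 3 the change for BA10 vs A10 was 0.27 with an adjusted p of 0.0991, and without A50 replicate 2 the adjusted p for BA50 vs A50 was 0.108. Of 10 other ways of processing, the change at 10 μg/mL passed in 6 and that at 50 μg/mL in 7. With each sample taken relative to its other Sertoli cell genes the averaged change was 0.19 (adjusted p = 0.0384).

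**Figure D4:**
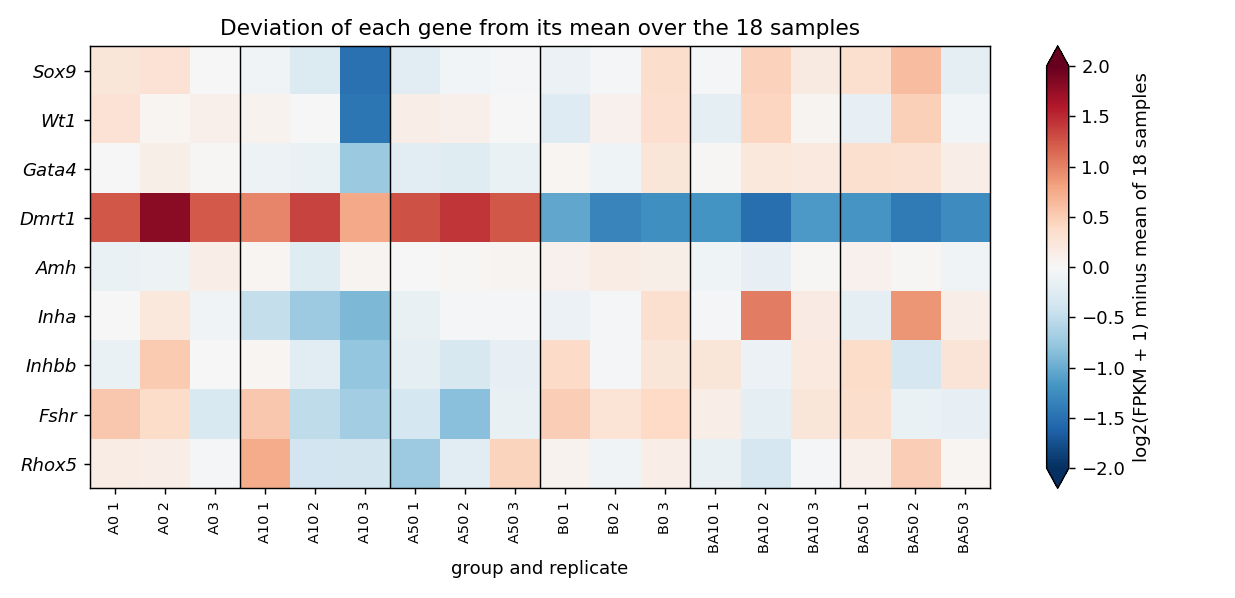
Log2(FPKM + 1) of each gene (rows) minus its mean over the 18 samples (columns by group and replicate, separated by lines), red above and blue below the mean. The *Dmrt1* row changes colour between the groups without and with busulfan, A10 replicate 3 is blue for *Sox9*, *Wt1*, *Gata4*, *Inha*, *Inhbb*, *Fshr* and *Rhox5*, and *Inha* is darkest red in BA10 replicate 2 and BA50 replicate 2.

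Of the inhibin subunit genes, *Inha* was higher with busulfan in the averaged effect. Its values were 134, 155 and 126 FPKM in A0, 95.1, 79.7 and 70.7 in A10, and 120, 131 and 130 in A50. They were 123, 129 and 166 FPKM in B0, 131, 271 and 149 in BA10, and 116, 247 and 145 in BA50. Every BA10 sample was above every A10 sample, while the samples of B0 and A0, and of BA50 and A50, overlapped. The log2 change was 0.0006 for B0 vs A0 (adjusted p = 0.9996), 1.09 for BA10 vs A10 (SE 0.267, adjusted p = 0.0097), 0.34 for BA50 vs A50 (adjusted p = 0.412) and 0.48 averaged (SE 0.154, adjusted p = 0.0247). The exact permutation p of the averaged effect, unadjusted, was 0.0232. The difference between the BA10 vs A10 and the B0 vs A0 changes was 1.09 with an adjusted p of 0.91, so the busulfan changes were not shown to differ. Without B0 replicate 3 the averaged effect missed the threshold (adjusted p = 0.0518), as it did relative to the other Sertoli cell genes (0.35, adjusted p = 0.0914). With only A10 and BA10 in the fit their difference had an adjusted p of 0.0764. With the 3 libraries that stood apart left out the averaged effect was 0.23 (adjusted p = 0.0411), 2 of them being the samples at 271 and 247 FPKM.

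*Inhbb* had 16.9, 27.3 and 18.8 FPKM in A0, 19.1, 16 and 10.4 in A10, and 16.2, 14.8 and 16.6 in A50. It had 24.5, 18.4 and 22.3 FPKM in B0, 22.2, 17.1 and 21.5 in BA10, and 24.3, 14.5 and 22.4 in BA50. Its averaged log2 change was 0.27 (95% interval -0.01 to 0.55, adjusted p = 0.12), which passed without BA50 replicate 2 (0.34, adjusted p = 0.0389). It also passed in 1 of 9 other ways of processing. The *Inha* to *Inhbb* proportion, within a sample, was 4.79 to 8.89 in 16 samples and 15.8 and 17.1 in BA10 replicate 2 and BA50 replicate 2. In both of these libraries *Inha* was the highest and *Inhbb* the lowest of its group.

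Among the other genes of the activin, inhibin and AMH pathway, 21 of 25 were tested, 3 rose and 2 fell with busulfan at an adjusted p under 0.05 (23.8%, against 38.1% of all genes), and the median log2 change was 0.05. *Fst*, which encodes the activin-binding protein follistatin, rose by 0.63 (SE 0.15, adjusted p = 0.0039), from 6.01 to 15.2 FPKM without busulfan to 10.9 to 27.4 FPKM with it. Its lowest value was in A10 replicate 3, and for B0 vs A0 alone its change was 0.54 (adjusted p = 0.214). *Acvr1*, a type I receptor, rose by 0.36 and *Id1*, a target of BMP signalling, by 0.35. *Acvr2b*, a type II activin receptor, fell by 0.34 (adjusted p = 0.0007), from 1.2 to 1.59 FPKM without busulfan to 0.62 to 1.19 FPKM with it. *Inhba*, the βA subunit gene, ran from 7.14 to 39.3 FPKM over the 18 samples.

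*Amh* never reached 1 FPKM. It had 0.3, 0.34 and 0.57 FPKM in A0, 0.47, 0.21 and 0.48 in A10, 0.44, 0.46 and 0.48 in A50, 0.52, 0.59 and 0.55 in B0, 0.35, 0.27 and 0.46 in BA10, and 0.52, 0.45 and 0.36 in BA50. Each B0 sample was above each A10, A50 and BA10 sample, and the other neighbouring groups overlapped or touched. Its averaged difference in log2(FPKM + 1) was 0.04, with an unadjusted exact permutation p of 0.477. *Amhr2*, its type II receptor, had 16.4 to 84.2 FPKM in the same samples.

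*Fshr* was low throughout. It had 2.97, 2.53 and 1.22 FPKM in A0, 2.95, 0.92 and 0.68 in A10, and 1.15, 0.53 and 1.47 in A50. It had 2.84, 2.29 and 2.59 FPKM in B0, 1.98, 1.39 and 2.24 in BA10, and 2.47, 1.48 and 1.45 in BA50. The 3 samples of A10 alone ran from 0.68 to 2.95 FPKM, and the averaged log2 change of 0.31 (95% interval -0.06 to 0.68) had an adjusted p of 0.17. It passed under quantile normalization (0.43, adjusted p = 0.048) and without A10 replicate 1 (0.43, adjusted p = 0.0228).

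*Rhox5* had 11, 10.9 and 9.64 FPKM in A0, 17.1, 7.27 and 7.37 in A10, and 5.52, 8.33 and 13.7 in A50. It had 10.4, 9.36 and 10.9 FPKM in B0, 8.82, 7.59 and 9.7 in BA10, and 10.6, 14.2 and 10.2 in BA50. No pair of groups separated by busulfan was free of overlap, and the averaged log2 change was 0.06 (95% interval -0.3 to 0.42, adjusted p = 0.80). Its change turned negative relative to the other Sertoli cell genes (-0.06). The spread was widest in A10 and A50, where the samples ran from 7.27 to 17.1 and from 5.52 to 13.7 FPKM.

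Of 20 genes of the FSH and androgen response, all tested, 7 rose and 2 fell with busulfan at an adjusted p under 0.05 (45%, against 38.1% of all genes) and the median log2 change was 0.03. *Cldn3*, an androgen-responsive tight junction gene, rose by 0.68 (adjusted p = 0.0053). *Trf*, the iron carrier transferrin that Sertoli cells secrete, rose by 0.62 (adjusted p = 0.00063). *Prkar2b*, a regulatory subunit of the cAMP-dependent kinase, rose by 0.41 (adjusted p = 0.0071). For B0 vs A0 alone the changes were 0.58 (*Cldn3*), 1.02 (*Trf*) and 0.31 (*Prkar2b*). The part of other tissue in the B0 samples was not tested. *Pde8a*, a phosphodiesterase that breaks down cAMP, fell by 0.73 (adjusted p = 4.8e-06), from 23.4 to 42.2 FPKM without busulfan to 15.8 to 24.4 FPKM with it. The other gene that fell was *Rhox8*, by 0.38 (adjusted p = 0.0053).

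Some genes stand in more than one of these lists, *Trf* among them. Of the 24 other Sertoli cell genes, 6 rose and 3 fell in the averaged effect (37.5%, against 38.1% of all genes), with a median log2 change of 0.13. *Gdnf*, the growth factor that maintains spermatogonial stem cells, rose by 0.74 (SE 0.1, adjusted p = 2.9e-05), from 2.72 to 4.86 FPKM without busulfan to 5.31 to 10.7 FPKM with it, without overlap. *Kitl*, the ligand of the KIT receptor on spermatogonia, rose by 0.54 (adjusted p = 0.00041), and *Ctsl*, a protease secreted by Sertoli cells, by 0.56 (adjusted p = 0.0044). The 3 that fell were *Tsx* (-0.475, adjusted p = 0.0028), *Rhox8* (-0.38, adjusted p = 0.0053) and *Sox8*. For B0 vs A0 alone *Gdnf*, *Kitl* and *Ctsl* changed by 0.35, 0.38 and 0.27, and none passed (adjusted p = 0.23, 0.169 and 0.549). A10 replicate 3 held the lowest *Ctsl* and *Trf* values of all samples. The regulators of gonadal fate gave 3 higher and 2 lower of 15 tested (33.3%, against the same 38.1%), with a median of 0.07. *Nr5a1*, the steroidogenic factor 1 gene, rose by 0.4 (adjusted p = 0.0106) and *Runx1* by 0.37 (adjusted p = 0.0189). For B0 vs A0 alone they changed by 0.13 (adjusted p = 0.77) and 0.3 (adjusted p = 0.407), and *Nr5a1* was lowest in A10 replicate 3. *Cbx2*, a Polycomb component needed for testis development, fell by 0.6 (adjusted p = 0.0001), and *Sox8*, the relative of *Sox9*, fell by 0.42 (adjusted p = 0.0182), from 0.62 to 2.6 FPKM without busulfan to 0.32 to 1.39 FPKM with it. *Foxl2*, the ovarian counterpart that *Dmrt1* loss releases in mouse Sertoli cells, had 0 to 0.15 FPKM and did not pass the filter.

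Markers of other somatic cells differed in how often they passed in the averaged busulfan effect, against 38.1% of all genes. Of 7 Leydig cell genes tested, 1 rose and 0 fell (14.3%), with a median of 0.31. The gene that rose was *Star*, the cholesterol carrier of steroid synthesis, by 0.75 (adjusted p = 0.00021). The summed Leydig markers were 708 to 1170 FPKM without busulfan and 937 to 2287 FPKM with it, and their part in the *Gata4* and *Inha* values was not tested. Of 6 endothelial genes 3 rose (50%), of 8 macrophage genes 1 rose (12.5%, *Cd14*, by 0.39), and of 6 peritubular myoid genes 0 passed. *Tagln* and *Acta2*, contractile genes of these myoid cells, had means of 156 and 52.3 FPKM without busulfan and 168 and 52.9 FPKM with it. All 7 fat cell genes rose (*Cfd* by 2.31, *Car3* by 1.65). Of 7 duct epithelium genes, 3 rose (*Krt7* by 0.99) while *Epcam* of the same list fell by 0.45 (57.1% passed). Of 6 genes tested of the mesothelium list, 0 rose and 1 fell (16.7%), *Bnc1* by 1.04, whereas the median of that list was 0.22. Which cells of the whole testis the *Bnc1* and *Epcam* transcripts came from was not tested. For B0 vs A0 alone 7 of 7 fat and 5 of 7 duct genes rose at an adjusted p under 0.05 (13.8% of all genes passed). For BA10 vs A10 and BA50 vs A50, 0 genes of either list passed (18.9% and 19.9% of all genes did). The fat and duct genes were high in the B0 samples, whose *Gata4*, *Inha*, *Sox9* and *Wt1* values overlapped those of A0.

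No member passed a test of AOS. In testes without busulfan, all 8 tested members had a lower mean with 10 μg/mL AOS than with 0, by 0.09 to 0.79 on the log2 scale with a median of -0.44, against a median of -0.06 over all genes and of -0.47 over the 24 other Sertoli cell genes. Relative to those genes, 5 of the 8 turned positive (*Dmrt1* 0.12, *Fshr* 0.09, *Gata4* 0.14, *Inhbb* 0.07 and *Rhox5* 0.42), and *Sox9* (-0.27), *Wt1* (-0.09) and *Inha* (-0.24) stayed negative. No member passed (smallest adjusted p = 0.322), 4 of 8 had an unadjusted p under 0.05, and of all genes 0.0% were called by either rule. Each A10 sample was below each A0 sample for *Sox9*, *Gata4* and *Inha*, and 20.1% of all genes did not overlap between these groups. For *Inha* this reads 70.7 to 95.1 FPKM in A10 against 126 to 155 in A0. Without A10 replicate 3 the *Sox9* change was -0.35 in place of -0.79 and the *Wt1* change -0.11 in place of -0.6, whereas that of *Inha* was -0.66 in place of -0.76. With 50 μg/mL the 8 changes ran from -0.65 (*Fshr*) to -0.07 (*Wt1*), against a median of -0.38 over the 24 other Sertoli cell genes. Relative to those genes 7 of the 8 turned positive, from 0.05 (*Inhbb*) to 0.34 (*Wt1*), and *Fshr* was at -0.24. The smallest adjusted p was 0.316, 1 of 8 had an unadjusted p under 0.05 and again 0.0% of all genes were called. *Sox9*, *Gata4* and *Inhbb* did not overlap between A50 and A0, and neither did 40.8% of all genes.

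After busulfan, the changes with 10 μg/mL AOS ran from -0.33 (*Fshr*) to 0.33 (*Inha*), with 4 members above 0 and 4 below. None passed (smallest adjusted p = 0.749, 0 of 8 at an unadjusted p under 0.05), while 0.0253% of all genes had an adjusted p under 0.05 and 0.0% were called by the stricter rule. *Fshr* was the 1 tested member without overlap (1.39 to 2.24 FPKM in BA10, 2.29 to 2.84 in B0), where 11.4% of all genes did not overlap. With 50 μg/mL the changes ran from -0.37 (*Fshr*) to 0.22 (*Inha*), the smallest adjusted p was 0.4 and 0 of 8 had an unadjusted p under 0.05. Of all genes 0.095% had an adjusted p under 0.05 and 0.0% were called by the stricter rule. No tested member was free of overlap between BA50 and B0, against 24.6% of all genes. *Dmrt1*, at 0.47 to 0.88 FPKM with AOS and 0.67 to 1.03 without it, was no higher in either group, and its log2 changes were -0.09 (95% interval -0.46 to 0.28) and -0.09 (-0.45 to 0.28).

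The difference between the AOS change with and without busulfan was tested for both concentrations. At 10 μg/mL it ran from -0.12 (*Rhox5*) to 1.09 (*Inha*), and *Sox9* (0.93), *Gata4* (0.46) and *Inha* had unadjusted p values under 0.05, with a smallest adjusted p of 0.91. Relative to the other Sertoli cell genes these were 0.52 (*Sox9*), 0.04 (*Gata4*) and 0.68 (*Inha*), and 4 of the 8 members were below 0. At 50 μg/mL it ran from 0.03 (*Dmrt1*) to 0.46 (*Sox9*), with a smallest adjusted p of 0.783 and 1 of 8 at an unadjusted p under 0.05. In both, 0.0% of all genes passed either rule. For the busulfan comparisons, the ranges of the 2 groups did not overlap for 1 of 8 members in B0 vs A0 (33.2% of all genes), 4 in BA10 vs A10 (31.2%), 2 in BA50 vs A50 (41.7%) and 1 in the 9 samples against 9 (10.2%). The 4 in BA10 vs A10 were *Dmrt1*, lower, and *Sox9*, *Gata4* and *Inha*, higher.

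By the mean standardized profile of the 8 tested members over the 18 samples, the most similar genes outside the list were *Tnik* (Pearson's r = 0.964), *Agfg2* (0.948), *Exoc3l* (0.947), *Ttc7b* (0.946) and *Cdc42bpb* (0.946). These samples share libraries and depth with the members, so the values are a description. Their mean levels ran from 5.75 to 22.2 FPKM.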

How the data were processed

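Poly(A) RNA of 18 cultured testis samples (6 groups of 3) was analyzed. The authors deposited FPKM values with 2 decimals for each gene and sample. Per the submitters' processing notes the tools were HISAT, Bowtie2 and RSEM with GRCm38.p5, whereas the supplementary methods describe SOAPaligner and RPKM; the processing behind the values is therefore not settled. Versions and read counts are not given in the sources used here, so depth is unknown and precision was judged from the 3 samples of a group. The series design gives AOS in mg/kg body weight; the labels and paper give μg/mL, which is used.

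NCBI gene numbers were matched to symbols with RefSeq (GRCm38.p6), and 155 numbers had none. FPKM summed to 463970 to 511274 per sample. The 15790 genes that reached 1 FPKM in 3 or more samples were tested with limma 3.58.1 in R 4.3.3 (lmFit, eBayes with trend) on log2(FPKM + 1), all 18 samples in one fit with 1 coefficient per group and 12 residual degrees of freedom. P-values are two-sided. In simulated data 93 of 200 genes changed by 1 on the log2 scale, and 194 of 200 changed by 2, were called by the stricter rule for the averaged busulfan effect, among 15790 genes. The changed genes were drawn from those with a mean log2(FPKM + 1) over 2, which leaves out *Fshr*. The noise was independent between samples, with no outlying library and no shared replicate effect, so the simulation does not cover those. Exact permutation tests exchanged the busulfan label within AOS concentration; a test of 3 against 3 samples alone cannot go below 0.1. The change of *Amh*, below the filter, is from the fit without a filter.

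The members, lists, motifs and tests were chosen with earlier results of these data known. Named genes were the members, up to 4 genes per list with the largest averaged busulfan change at an adjusted p under 0.05 (otherwise the 2 highest), the 5 genes most like the mean member profile, and *Krt7* and *Car3*. *Amhr2*, *Inhba*, *Foxl2*, *Clu*, *Ldhc*, *Cnn1*, *Etv5*, *Gfra1*, *Zbtb16*, *Uchl1*, *Tsx*, *Rhox8* and the genes most like *Dmrt1* were named after their values were seen. Alternatives were a replicate block, fitting the compared groups alone, log2(FPKM + 0.1), no filter, a mean of at least 5 FPKM, quantile normalization, equal sums, values relative to other Sertoli cell genes, eBayes without trend and each sample left out. Leaving out 3 libraries together, and a block in B0 and BA50 alone, were added after seeing the data. For B0 and BA50, same-numbered samples deviated together in every pair (r = 0.138 to 0.562). So did those of BA10 and BA50 (r = 0.353 to 0.674), which were not set against each other directly. The main fit of the averaged busulfan effect and the permutation tests take the samples as independent. For each other pair of groups compared, at least 1 of the 3 pairs had r under 0.1. No label ties a number to a common culture. With the block in B0 and BA50 alone, 14 genes in place of 15 had an adjusted p under 0.05 for BA50 vs B0. Further software was SciPy 1.17.1 and NumPy 2.4.6, with pandas 2.3.3 for tables and matplotlib 3.10.9 for plots, under Python 3.11.15. The single-cell, metabolite and microbiota experiments were not analysed here.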

Additional observations from a re-analysis of the deposited data

How the results depend on the processing

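Read depth is unknown, so low values such as those of *Amh* and *Fshr* cannot be given a counting error, and 3 samples a group leave wide intervals. *Dmrt1* was called in each busulfan comparison, except that the count of called members was 0 where a mean of at least 5 FPKM was asked (its mean is 4.96 FPKM, so it was not tested) and 0 with only the groups compared for B0 vs A0 and BA10 vs A10 (fewer samples in the fit). At an adjusted p under 0.05 the count was 3, 2 and 3 for BA10 vs A10, BA50 vs A50 and the averaged effect, in place of 1. With the replicate block it was 1 in each busulfan comparison and 0 in each AOS comparison; at an adjusted p under 0.05 the block changed 1 call of a member in a busulfan comparison, *Gata4* in BA50 vs A50 (0.0531). Leaving out 1 sample left the counts at 1 and 0. The fit of only the groups compared is the same fit for the averaged effect.

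Directions of changes that passed no test turned under some settings. Relative to the other Sertoli cell genes, 5 of 8 turned for A10 vs A0, 7 for A50 vs A0, 2 for BA10 vs B0, 2 for BA50 vs B0 and 1 each for BA10 vs A10 (*Fshr*) and BA50 vs A50 (*Wt1*). Without the 3 libraries *Wt1* turned for BA10 vs A10 (0.56 to -0.096) and BA50 vs A50, *Rhox5* for A10 vs A0, and 3 members each for BA10 vs B0 and BA50 vs B0. *Wt1* also turned with equal sums for BA50 vs A50 and under quantile normalization for BA50 vs B0. In the averaged effect these were *Wt1* without the 3 libraries (-0.12) and *Rhox5* relative to other Sertoli cell genes (-0.062) and without the 3 libraries (-0.019). For B0 vs A0 they were *Wt1* (0.0073) and *Rhox5* (0.0535) relative to other Sertoli cell genes, *Gata4* (-0.028) and *Inha* (-0.046) with equal sums, and *Inha* (-0.028) and *Rhox5* (0.063) under quantile normalization; the cause was not tested. Leaving out 1 sample, the averaged change ran from -0.000126 to 0.25 for *Wt1* and from -0.033 to 0.18 for *Rhox5*, and that of B0 vs A0 from -0.23 to 0.0703 for *Wt1*, -0.073 to 0.092 for *Gata4*, -0.13 to 0.084 for *Inha*, -0.068 to 0.26 for *Inhbb*, -0.07001 to 0.35 for *Fshr* and -0.098 to 0.013 for *Rhox5*.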
